A study of Mus musculus with 4 samples.

Results

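The cytosolic ribosomal protein genes were followed on arrays of the mouse mammary gland. They were taken by symbol from the platform's annotation: every probe set whose only symbol was Rpl or Rps followed by a digit, or Rplp0, Rplp1, Rplp2 or Rpsa, leaving out Rps6 kinases and pseudogene symbols. A probe set is the group of short array probes that reports 1 transcript. The rule found 100 of 22690 probe sets, which stood for 48 genes, 26 of the large (60S) subunit and 22 of the small (40S) subunit. Ribosomal protein genes have many near-identical copies in the genome, and 102 further probe sets that carried a ribosomal protein symbol together with other symbols fell outside the rule. Because of this, 30 ribosomal protein symbols, among them Rpl3, Rpl5, Rplp1 and Rps16, were seen only on such shared probe sets.

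The study used female FVB mice that had not borne young, and hybridised mammary RNA to 4 Affymetrix arrays, 1 for each group. The groups were MMTV-PPARd transgenic mice on chow with GW501516, MMTV-PPARd transgenic mice on standard chow, wild-type mice on chow with GW501516 and wild-type mice on standard chow, with diets given for 1 week. MMTV-PPARd mice carry a PPARd transgene behind the promoter of mouse mammary tumour virus, which is active mainly in mammary epithelium. GW501516 is a synthetic agonist of the nuclear receptor PPARd, and the labels give its content in the chow as 0.005% in one place and 0.001% in another. The wild-type mice were age-matched littermates, and the age is not given in the sources used here. Each array held pooled RNA of 5 mice, so that a group had 1 value and no replicate spread. No test is possible with 1 array per group, and every difference below describes these 4 pools.

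Ribosomal proteins and the ribosomal RNAs together form the small subunit, which reads the mRNA, and the large subunit, which joins the amino acids. Their genes are among the most highly transcribed in every dividing or secreting cell, and in vertebrates their mRNAs start with a run of pyrimidines (the 5′ terminal oligopyrimidine, or TOP, motif) through which mTOR signalling sets how fast they are translated. The mammary gland remodels between a fatty resting state and a secretory one, and milk protein synthesis places a heavy load on ribosomes.

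Promoter sequence of RefSeq (build GRCm38.p6, from 250 bases before to 50 bases after an annotated start) was at hand for 42 of the 48 genes, with 50 starts in all. A run of at least 8 C or T bases lying within 20 bases of the start was present at 40% of these starts, against 16.0% of all 32851 starts in the table. The ETS-type motif CCGGAAG, read on both strands over the whole window, was present in 42% against 8.86%. The motif ATGGCGG, read in the same way, was present in 14% against 4.05%. TATAAA, the core of the TATA box, was present in 12% against 13.6%. The reverse strand of CCGGAAG holds C and T letters that can lie within a pyrimidine run, and such overlaps were not removed. A match describes the letters only.

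The stretch from 40 bases before to 20 bases after the start is shown for 6 genes on which the values below turn, to let the pyrimidine runs be seen beside the expression values. Capitals mark the longest run of C and T within 20 bases of the start. The stalk protein Rplp2 (chr7:141447611-141447670, plus strand), the 60S protein Rpl38 (chr11:114668540-114668599, plus strand) and the 40S protein Rps10 (chr17:27635225-27635284, minus strand) had bright probe sets. Rpl22l1 (chr3:28805468-28805527, plus strand) and Rpl3l (chr17:24727786-24727845, plus strand, the first of 2 annotated starts) are paralogs, and Rpl27a (chr7:109519155-109519214, plus strand) had a dim probe set with wide differences.
Rplp2: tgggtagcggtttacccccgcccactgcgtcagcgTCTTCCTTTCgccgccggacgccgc
Rpl38: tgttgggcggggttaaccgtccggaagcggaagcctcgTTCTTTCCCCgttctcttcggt
Rps10: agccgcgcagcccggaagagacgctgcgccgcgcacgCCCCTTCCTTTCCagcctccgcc
Rpl22l1: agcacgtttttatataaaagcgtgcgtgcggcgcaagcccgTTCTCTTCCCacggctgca
Rpl27a: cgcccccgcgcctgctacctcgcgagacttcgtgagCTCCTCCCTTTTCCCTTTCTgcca
Rpl3l: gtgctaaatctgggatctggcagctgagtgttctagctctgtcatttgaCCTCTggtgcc
The runs were 10 bases long in Rplp2, Rpl38 and Rpl22l1, 13 in Rps10 and 20 in Rpl27a. The longest run in Rpl3l, the muscle paralog of Rpl3, was 5 bases. Genes with bright probe sets also had short runs, with longest runs of 4 bases in Rps28 and 3 in Rpl41. The 6 genes shown thus do not stand for the set.

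The values are array intensities on a linear scale, which the authors had scaled so that the mean of each array without its lowest and highest 2% was close to 500.2. Intensities under 20.5 were raised to that floor before log2 was taken, a gene was kept where at least 1 array reached 139, and each gene was represented by its probe set of highest mean. All 48 ribosomal protein genes were kept, among 7836 genes in all. By probe set, 87 of the 100 reached 139 and 6 lay below the floor on every array. Intensities of different probe sets depend on the probes, so levels are compared between arrays and not between genes.

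The array of transgenic mice on chow stood apart in its controls, and this bears on every comparison that uses it. The Cre spike-in, an RNA added in a fixed amount to each sample, read 12017 and 7988 in transgenic mice on GW501516 and chow, and 11268 and 10786 in wild type on GW501516 and chow. The highest intensity of any probe set was 21072 and 14309 in transgenic mice on GW501516 and chow, and 21520 and 19396 in wild type on GW501516 and chow. On the array of transgenic mice on chow that highest probe set was Rps29. The BioB spike-in, added at the lowest amount, read 374 on GW501516 and 29.2 on chow in transgenic mice, and 337 on GW501516 and 373 on chow in wild type. The 3′ to 5′ signal ratio of Gapdh, a sign of RNA integrity, was 0.900 and 1.12 in transgenic mice on GW501516 and chow, and 0.799 and 0.774 in wild type on GW501516 and chow. Ppard read 4223.5 and 1943 in transgenic glands on GW501516 and chow, against 1.5 and 2.1 in wild-type glands on GW501516 and chow, so that it was high in both pools labelled transgenic. The luminal keratin gene Krt18 read 5620 to 6790 and the adipocyte gene Adipoq 9984 to 15056, so that epithelium and fat were both present in every pool. Their amounts need not be equal. Over 9 luminal epithelial genes the median log2 difference of transgenic from wild-type glands on chow was 1.47, with 6 genes at least 2-fold higher. The pool of wild-type mice on GW501516 also stood apart: 3 genes known from salivary gland, Bpifa2, Smr3a and Cst10, summed to 13.3 and 3 in transgenic mice on GW501516 and chow, and to 4717.7 and 11.1 in wild type on GW501516 and chow. All 3 were below the floor in the other pools.

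Most ribosomal protein genes were among the brightest signals of the gland. The median gene stood at the 99.1 to 99.4 percentile of the probe sets of its array. Of the 100 brightest probe sets, 23 were ribosomal protein probe sets in transgenic mice on GW501516, 28 in transgenic mice on chow, 21 in wild type on GW501516 and 27 in wild type on chow. With the shared probe sets the numbers were 42 and 60 in transgenic mice on GW501516 and chow, and 41 and 55 in wild type on GW501516 and chow. The genes fell into a bright class of 36 genes with means of 5862 to 16914 and a dimmer class of 12 genes with means of 138.65 to 1315, with none between 1315 and 5862.

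The 3 brightest genes were Rps29 and Rps28, small proteins of the 40S subunit, and Rpl38, a 60S protein that in mouse embryos aids the translation of Hox mRNAs. Rps29 read 17858 in transgenic mice on GW501516, 14309 in transgenic mice on chow, 17117 in wild type on GW501516 and 18371 in wild type on chow. Rps28 read 17859 and 12744 in transgenic mice on GW501516 and chow, and 16140 and 16714 in wild type on GW501516 and chow. Rpl38 read 16055 and 12320 in transgenic mice on GW501516 and chow, and 15286 and 16042 in wild type on GW501516 and chow. At the deposited scaling the pool of transgenic mice on chow was the lowest in all 3 genes and the other pools lay close together.

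This was common in the bright class. Of its 36 genes, 27 were lowest in transgenic mice on chow, while 19 were highest in transgenic mice on GW501516 and 13 in wild type on chow. These shares were not counted over other genes, but other bright genes were also mostly lower in this pool. Of 290 other genes with means of at least 5000, 80.7% were lower in transgenic mice on chow than in wild type on chow. Likewise 80.7% were higher in transgenic mice on GW501516 than on chow. The median of the 36 ribosomal protein genes was 12582 in transgenic mice on GW501516, 10294 in transgenic mice on chow, 11787 in wild type on GW501516 and 12213 in wild type on chow. The genes kept close together: the range over the 4 arrays had a median of 0.28 (log2) and was at most 0.50. That widest range in the class belonged to Rps14, a 40S protein, at 13536 and 9541 in transgenic mice on GW501516 and chow, and 12407 and 12721 in wild type on GW501516 and chow. The narrowest was that of Rpl10a, a 60S protein, at 11148 and 10628 in transgenic mice on GW501516 and chow, and 10725 and 11440 in wild type on GW501516 and chow.

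**Figure D1:**
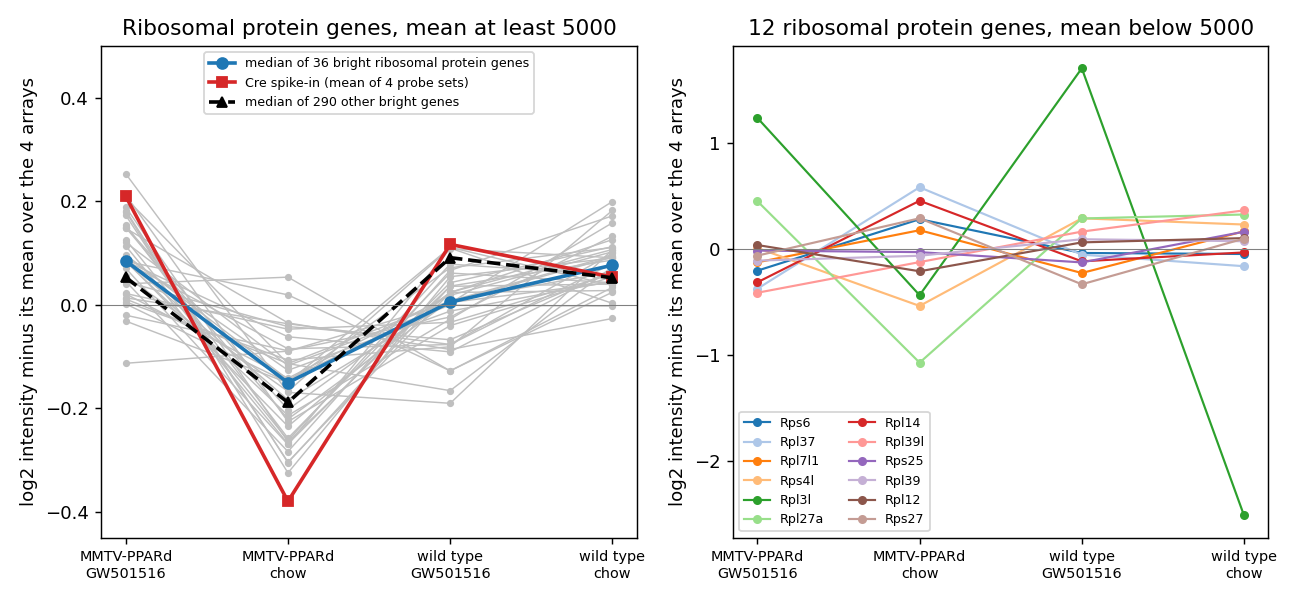
Log2 intensity of each ribosomal protein gene minus its own mean over the 4 arrays, with 1 array per group on the horizontal axis. Left, 36 genes with a mean intensity of at least 5000 (grey), their median (blue), the Cre spike-in (red) and the median of 290 other genes past the same mean (black). At the deposited scaling these medians and the spike-in are lowest for transgenic mice on chow. Right, the 12 genes with lower means, which spread widely and share no common order; Rpl3l spans from 47.0 to 881.1.

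Among the 4 comparisons that differ in 1 factor, GW501516 in transgenic glands had the largest positive median at the deposited scaling. Ribosomal protein genes were higher on GW501516 than on chow in 39 of 48 cases, against 46.8% of all 7836 genes, with a median log2 difference of 0.22 against -0.034 over all genes. The direction depends on how arrays are scaled: the median was -0.14 after quantile normalization and -0.39 after scaling to the Cre spike-in, and spike-in scaling moved the median of all genes by -0.60. At the scaling of the deposited values, 16 genes (33.3%) were at least 25% higher, against 20.9% of all genes, and 4 (8.33%) were at least 20% lower, the same fold downward, against 24.9%. At 2-fold the numbers were 2 higher, against 3.99% of all genes, and 0 lower, against 4.07%.

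The stalk proteins, which recruit elongation factors to the large subunit, were near the top of the bright class in this comparison. Rplp2 read 16439 on GW501516 and 11814 on chow in transgenic mice, and 14829 on GW501516 and 15703 on chow in wild type. Rplp0 read 14216 and 10866 in transgenic mice, and 13756 and 13555 in wild type, on GW501516 and chow. The log2 difference of transgenic mice on GW501516 from those on chow was 0.48 for Rplp2 and 0.39 for Rplp0. Rpsa, the 40S protein also known as a laminin receptor, differed less, with 13359 and 11934 in transgenic mice and 13334 and 14134 in wild type on GW501516 and chow, a log2 difference of 0.16 in transgenic mice. After scaling to the spike-in the differences were -0.11 for Rplp2 and -0.20 for Rplp0, and after quantile normalization they were 0.044 and -0.013.

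Against all other genes with means of at least 5000, the bright ribosomal protein genes had a close median in transgenic glands. Over the 36 bright genes the median log2 difference between GW501516 and chow was 0.24, and over the 290 other genes with means of at least 5000 it was 0.25. At least 25% higher were 36.1% of the bright ribosomal protein genes and 35.5% of the other bright genes. The other bright genes were mostly dimmer: 194 of them had means of 5000 to 8000, against 3 ribosomal protein genes, with medians of 0.17 and 0.18. With means of 8000 to 11000 the median was 0.12 for 12 ribosomal protein genes and 0.32 for 60 other genes. From 11000 up it was 0.34 for 21 ribosomal protein genes and 0.43 for 36 other genes. After quantile normalization the bright ribosomal protein genes lay 0.16 below the other bright genes, with medians of -0.14 and 0.012. The 12 dimmer ribosomal protein genes had a median of -0.17, with 5 above and 7 below 0. The Cre spike-in itself differed by 0.59, BioC by 0.74, BioD by 0.47 and 18S ribosomal RNA by 0.51 in this comparison, and the part of the array's scale in these values cannot be told apart from that of the diet.

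GW501516 in wild-type glands went with slightly lower values. Of 48 genes 37 were lower on GW501516 than on chow, against 54.9% of all genes, with a median log2 difference of -0.083 against -0.037 over all genes, and the median lay between -0.15 and -0.056 under every alternative scaling, floor, filter, probe set and member choice. The differences were small: 1 gene (2.08%) was at least 25% higher, against 15.6% of all genes, and 2 (4.17%) at least 20% lower, against 18.3%. At 2-fold there was 1 gene higher, Rpl3l, against 3.18% of all genes, and 0 lower, against 3.25%.

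In this comparison the spike-ins were closer: Cre differed by 0.063, BioD by 0.038, BioC by -0.011 and BioB by -0.15. Other controls differed more widely, with 18S ribosomal RNA at -0.12 and the Gapdh control probe sets at 0.49 to 0.59. The part of the array's scale in the ribosomal protein values was not tested. Here the bright ribosomal protein genes had a lower median than the other genes with means of at least 5000. It was -0.085, with 30 of 36 below 0, while the median of the 290 other bright genes was 0.027, with 41.4% below 0. The gap between the medians was -0.11 as deposited and -0.098 after quantile normalization. This comparison uses the pool that held the salivary gland genes, which differed by a median of 4.76 (log2), and their part in the gap was not tested. For scale, the change of a ribosomal protein gene's kept probe set differed from the median of its other probe sets by an SD of 0.14 over 19 genes in this comparison, and probe sets share the arrays, so that this holds no scatter between arrays. The lowest 3 genes were Rps27, Rpl7l1 and Rps10. Rps10, a 40S protein near the entry of the mRNA channel, read 11648 on GW501516 and 14307 on chow in wild type, 1.23-fold lower. The highest after Rpl3l were Rpl37 at 0.11 and Rps20 at 0.11. The Rpl37 value came from a dim probe set, and bright ones shared with other symbols gave -0.10 and -0.21.

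Cell markers moved between the same pools. The summed intensity of 9 measured T cell genes (of 12 listed) was 1382 and 2635 in transgenic mice, and 1521 and 6587 in wild type, on GW501516 and chow. That of 9 measured B cell genes (of 10) was 208 and 2415 in transgenic mice, and 279 and 4827 in wild type, on GW501516 and chow. In wild type the B cell gene Ms4a1 read 24.5 on GW501516 and 1028 on chow, and the T cell gene Cd8b1 read 1.5 on GW501516, below the floor, and 550.9 on chow. In a bulk sample fewer cells of a type and less RNA per cell cannot be told apart, and the part of these cells in the ribosomal protein values was not tested.

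The transgene on GW501516 went with slightly higher values. Transgenic glands were above wild type in 34 of 48 genes, against 50.2% of all genes, with a median log2 difference of 0.091 against 0.0016 over all genes, and the median was -0.0018 after scaling to the Cre spike-in. At least 25% higher were 2 genes (4.17%), Rps10 and Rpl22l1, against 17% of all genes, and 3 (6.25%) were at least 20% lower, against 16%. None was past 2-fold, against 2.82% of all genes higher and 1.19% lower. In the bright class 30 of 36 genes were above 0, with a median of 0.099, against 45.5% of the other bright genes, whose median was -0.018. The gap of 0.12 was 0.073 after quantile normalization, beside an SD of 0.29 between probe sets of one ribosomal protein gene. Among the controls the Cre spike-in differed by 0.093, BioD by 0.086, BioC by 0.25, BioB by 0.15 and 18S ribosomal RNA by 0.49. The part of the array's scale in these values was not tested. This comparison again uses the wild-type pool with the salivary gland genes, which differed by -4.76 (log2) in the median of 3. The summed milk protein and alveolar genes were 129332 in transgenic glands and 51313 in wild type on this diet. Cell cycle genes were higher in transgenic glands in 18 of 18, with a median of 0.85, and luminal epithelial genes in 8 of 9, with a median of 0.63. The part of these groups in the ribosomal protein values was not tested.

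Rps10 had the largest positive difference between the genotypes on GW501516, but rested on 1 of its probe sets. The kept probe set read 15838 in transgenic glands and 11648 in wild type, 1.36-fold higher. Its other 4 bright probe sets gave log2 differences of 0.046, 0.14, -0.047 and 0.19, where the kept one gave 0.44. Rpl22l1, a paralog of Rpl22 that has 1 probe set here, read 6726 in transgenic glands on GW501516, 5389 in transgenic glands on chow, 5198 in wild type on GW501516 and 6135 in wild type on chow. It was thus 1.29-fold higher in transgenic glands on GW501516.

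The transgene on chow shares the pool of transgenic mice on chow with the first comparison. Transgenic glands were below wild type in 41 of 48 genes, against 48% of all genes, with a median log2 difference of -0.23 against 0.020 over all genes, but the median was 0.032 after quantile normalization and 0.21 after scaling to the Cre spike-in, which moved the median of all genes by 0.45. As deposited, 11 genes (22.9%) were at least 20% lower, against 22.7% of all genes, and 4 (8.33%) at least 25% higher, against 24.9%. At 2-fold 1 gene was lower, Rpl27a, against 3.71% of all genes, and 1 higher, Rpl3l, against 5.46%. In the bright class 35 of 36 genes were below 0, against 80.7% of the other bright genes, with medians of -0.25 and -0.23. The gap between them was -0.019 as deposited and 0.086 after quantile normalization. Among the brightest genes, with means of at least 11000, the median was -0.28 for 21 ribosomal protein genes and -0.36 for 36 other genes. Cell markers also differed between these pools as deposited. The median log2 difference was 2.14 for milk protein and alveolar, 1.47 for luminal epithelial and 0.86 for cell cycle genes. It was -0.70 for macrophage, -0.48 for fibroblast and matrix and -0.47 for white adipocyte genes. The part of these groups in the ribosomal protein values on chow was not tested.

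**Figure D2:**
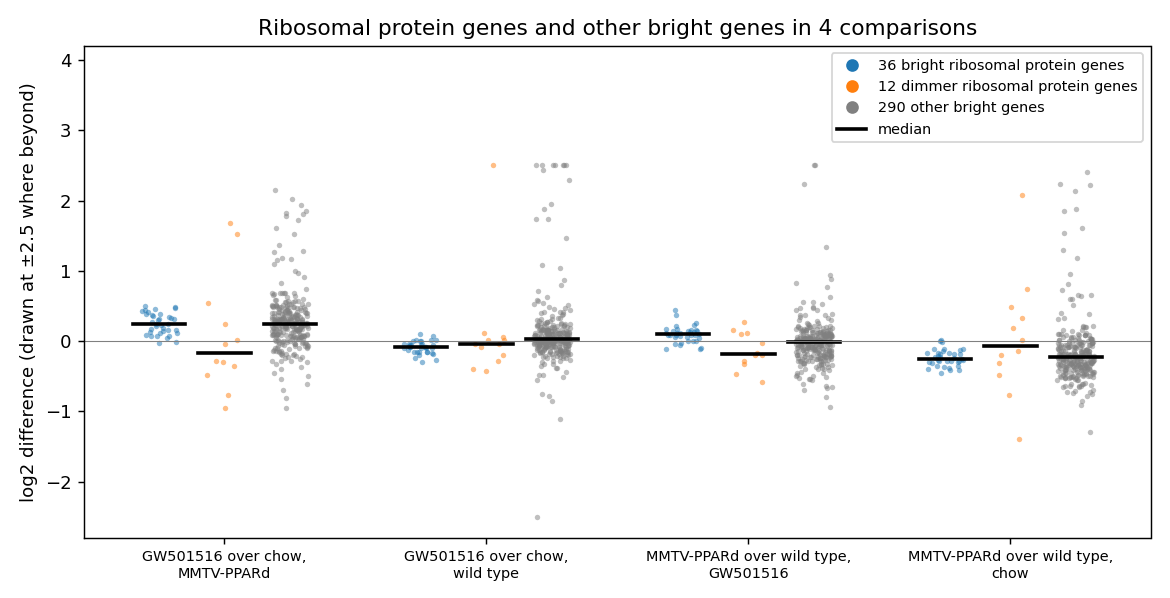
Log2 difference of single genes (points, drawn at 2.5 where beyond) in the 4 comparisons that differ in 1 factor, for 36 bright ribosomal protein genes, 12 dimmer ones and 290 other bright genes, with medians as black bars. The bright ribosomal protein genes and the other bright genes have close medians within transgenic mice and on chow (0.24 and 0.25, -0.25 and -0.23) and less close ones in the other comparisons (-0.085 and 0.027, 0.099 and -0.018); the medians of 0.24 and -0.25 change sign under quantile normalization and spike-in scaling.

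The subunits had close medians. In transgenic glands GW501516 gave medians of 0.20 for the 26 genes of the 60S subunit and 0.22 for the 22 genes of the 40S subunit, both of which changed sign under quantile normalization and spike-in scaling. In wild type the medians were -0.076 for the 60S and -0.086 for the 40S genes. The 75 bright shared probe sets, which the rule left out, gave 0.22 and -0.078 in these comparisons, 0.096 for the transgene on GW501516 and -0.23 for the transgene on chow, close to the 48 genes on the same arrays. Set side by side, 31 of 48 genes were higher on GW501516 in transgenic glands and lower in wild type, against 22.5% of all genes, where the count within transgenic mice depends on the scaling as given above.

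Transgenic glands on GW501516 and wild-type glands on chow, which differ in both factors, were close at the deposited scaling. The median log2 difference was -0.013, against -0.023 over all genes, with 23 genes above and 25 below 0, against 47.8% and 52.1% of all genes. Only Rpl3l was at least 25% higher (18.8% of all genes were) and only Rpl39l at least 20% lower (21% of all genes). At 2-fold there was 1 gene higher, Rpl3l, against 5.5% of all genes, and 0 lower, against 4.21%. After scaling to the spike-in the median was -0.18, and that of all genes was also -0.18. At least 20% lower were then 9 genes, against 34.1% of all genes. Of the 36 bright genes 34 were then below 0, against 77.2% of the other bright genes. This is the only one of these comparisons that uses neither the pool of transgenic mice on chow nor that of wild type on GW501516. In it the bright ribosomal protein genes and the other bright genes had medians of 0.012 and -0.0039, a gap of 0.015 as deposited and -0.027 after quantile normalization. These pools differed widely in cell markers. The median log2 difference was 3.64 for skeletal muscle, 2.95 for milk protein and alveolar and 1.04 for luminal epithelial genes. It was -3.81 for T cell and -3.99 for B cell genes. The part of these groups in the ribosomal protein values was not tested.

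The effect of GW501516 in transgenic glands minus its effect in wild type uses all 4 pools. It was above 0 in 42 of 48 genes, against 50.5% of all genes, with a median of 0.28 (log2) against 0.0056 over all genes, and the median was 0.010 after quantile normalization and -0.24 after spike-in scaling. As deposited, 21 genes had an effect at least 25% higher in transgenic glands, against 25.2% of all genes, and 4 one at least 20% lower, against 25.4%. At 2-fold there was 1 gene above, Rpl27a, against 4.43% of all genes, and 2 below, Rpl3l and Rpl37, against 5.25%. All 36 bright ribosomal protein genes were above 0 in this difference, with a median of 0.32, and 72.1% of the other bright genes were, with a median of 0.21. After quantile normalization 18 of the 36 were above 0, with a median of -0.0097, and after spike-in scaling 6 were, with a median of -0.20.

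**Figure D3:**
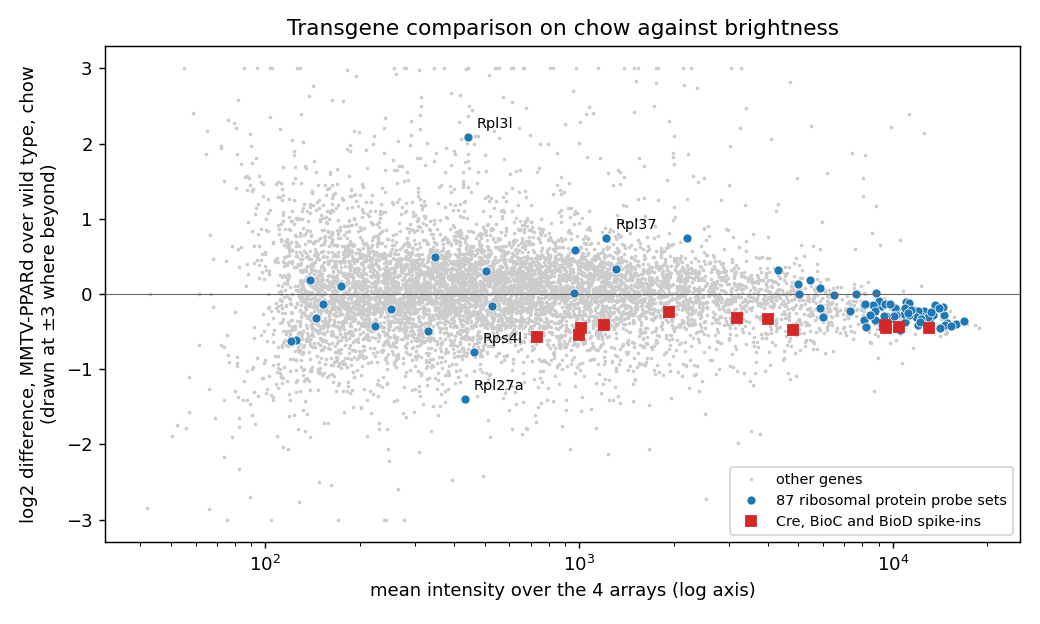
Log2 difference of transgenic over wild-type glands on chow (vertical axis) against mean intensity over the 4 arrays (horizontal log axis), for 87 ribosomal protein probe sets (blue), Cre, BioC and BioD spike-ins (red) and all other genes (grey). Of the 65 ribosomal protein probe sets with means of at least 5000, 61 lie below 0 as the spike-ins do, with a median of -0.25, and dimmer ones lie on both sides, with a median of 0.061 for 22 probe sets.

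The widest differences came from the dimmer class and were led by Rpl3l. Rpl3l is the paralog of Rpl3 that takes its place in the ribosomes of skeletal muscle and heart. It read 636.4 in transgenic glands on GW501516, 199.1 in transgenic glands on chow, 881.1 in wild-type glands on GW501516 and 47.0 in wild-type glands on chow. Both pools on GW501516 were above both pools on chow. GW501516 went with a 3.20-fold higher value in transgenic glands and an 18.7-fold higher one in wild type. Transgenic glands were 1.38-fold lower than wild type on GW501516 and 4.24-fold higher on chow.

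Skeletal muscle genes were likewise higher in both pools on GW501516. The summed intensity of all 15 listed muscle genes was 131594 and 40670 in transgenic glands on GW501516 and chow, and 135005 and 18097 in wild type on GW501516 and chow. Their median log2 difference between GW501516 and chow was 1.96 in transgenic glands and 3.73 in wild type, and between transgenic and wild type it was -0.10 on GW501516 and 1.45 on chow. The muscle myosin gene Myh1 read 7544 and 1194 in transgenic glands on GW501516 and chow, and 9835 and 168.9 in wild type on GW501516 and chow. The muscle actin gene Acta1 read 16670 and 6486 in transgenic glands, and 15181 and 3926 in wild type, on GW501516 and chow. Of the 15 genes only Myh2, at 11.8 in wild type on chow, was under the floor in any pool. The part of muscle tissue in the Rpl3l values was not tested, and Rpl3 itself had no probe set of its own here.

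**Figure D4:**
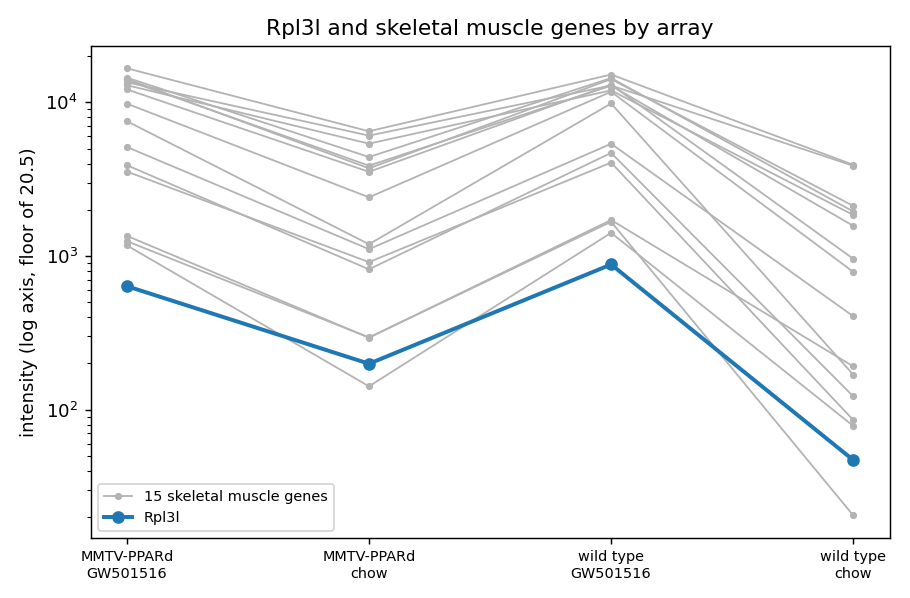
Intensity (vertical log axis, floor of 20.5) of Rpl3l (blue) and 15 skeletal muscle genes (grey) on the 4 arrays, 1 per group. Rpl3l is lowest in wild type on chow, at 47.0, and highest in wild type on GW501516, at 881.1, as is Myh1, at 168.9 and 9835.

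The other paralogs differed less. Rpl39l, a paralog of Rpl39 known from mouse male germ cells, read 242.2 in transgenic glands on GW501516, 296.1 in transgenic glands on chow, 361.6 in wild type on GW501516 and 415.6 in wild type on chow. It was 1.49-fold lower in transgenic glands than in wild type on GW501516 and 1.40-fold lower on chow. At the deposited scaling both transgenic pools were thus below both wild-type pools. The log2 differences of Rpl39l were -0.58 on GW501516 and -0.49 on chow, where the Cre spike-in itself differed by 0.093 and -0.43. Rps27l, a paralog of Rps27 induced by p53, read 7166 and 6314 in transgenic glands, and 6094 and 6352 in wild type, on GW501516 and chow, less than 25% apart in each comparison.

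Rps4l, named for its likeness to Rps4, read 453.7 in transgenic glands on GW501516, 310.4 in transgenic glands on chow, 551.2 in wild type on GW501516 and 529.3 in wild type on chow. It was 1.46-fold higher on GW501516 in transgenic glands, where the log2 difference was -0.042 after scaling to the spike-in, and 1.71-fold lower in transgenic glands on chow. Rpl7l1, named for its likeness to Rpl7, was lower on GW501516 in both genotypes, with 876.2 and 1081 in transgenic glands and 816.8 and 1074 in wild type on GW501516 and chow. Its other probe set gave 0.20 (log2) in transgenic glands where the kept one gave -0.30, and -0.43 in wild type where the kept one gave -0.39.

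For several core genes the dim probe set went against brighter ones of the same gene. Rpl37, a 60S protein, read 912.7 in transgenic glands on GW501516, 1775 in transgenic glands on chow, 1141 in wild type on GW501516 and 1058 in wild type on chow, and was the lowest gene within transgenic mice at -0.96 (log2). Bright probe sets shared between Rpl37 and other symbols gave 0.28 and -0.17 in that comparison. On chow the kept probe set was 1.68-fold higher in transgenic glands, and the shared bright ones gave -0.25 and -0.13.

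Rps6, the 40S protein that S6 kinases phosphorylate downstream of mTOR, showed the split most fully. Its kept probe set read 1134 in transgenic glands on GW501516, 1588 in transgenic glands on chow, 1273 in wild type on GW501516 and 1264 in wild type on chow. The difference between the diets in transgenic glands was -0.49 (log2). The 4 bright shared Rps6 probe sets, with means of 11111 to 12797, gave 0.18 to 0.48 in the same comparison. The 4 dimmer shared ones, with means of 487 to 1852, gave -1.27 to -0.68. On chow, transgenic over wild type, the bright ones gave -0.39 to -0.22 and the dimmer ones 0.48 to 0.88. Direction thus followed the probe set rather than the gene name.

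Rpl27a, a 60S protein, was the widest-ranging core gene. It read 546.7 in transgenic glands on GW501516, 189.7 in transgenic glands on chow, 488.1 in wild type on GW501516 and 501.0 in wild type on chow, so that 1 pool was low and the others lay together. The low pool made it 2.88-fold higher on GW501516 within transgenic mice and 2.64-fold lower in transgenic glands on chow. A bright probe set shared with other symbols read 13247 and 10182 in transgenic glands, and 12137 and 12738 in wild type, on GW501516 and chow, with log2 differences of 0.38 and -0.32 in these comparisons, the same signs and smaller sizes. Rpl14, another 60S protein, was highest in that pool, with 275.0 and 469.3 in transgenic glands, and 315.5 and 334.5 in wild type, on GW501516 and chow, and was 1.71-fold lower on GW501516 within transgenic mice. The 5 bright probe sets shared between Rpl14 and other symbols gave -0.29 to 0.047.

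Some ribosomal protein genes had probe sets that disagreed in sign. Of 19 genes with at least 2 probe sets reaching 139, both signs were seen in 9 within transgenic mice and in 6 within wild type, and in 9 for the transgene on GW501516 and 6 on chow. The share of such splits over all genes was not counted. The SD between a gene's kept and other probe sets was 0.34, 0.14, 0.29 and 0.23 in these comparisons. Over all 2536 genes with several probe sets it was larger, at 0.45, 0.35, 0.37 and 0.38. Some splits lay close to 0, as for Rps27l, at -0.012 to 0.18 within transgenic mice. The widest splits were those of Rpl13a, Rps9, Rpl22, Rpl27 and Rps24. Rpl13a, a 60S protein that in human monocytes can leave the ribosome to silence inflammatory mRNAs, gave -0.28 (log2) for the transgene on chow by its kept probe set and 0.74 by its dimmest. Rpl22 gave 0.065 by its kept probe set, with a mean of 7626, and -0.68 by another, with a mean of 967, for GW501516 within transgenic mice. Rpl27 gave 0.17 against -0.45 and -0.57 in that comparison. Rps24 spanned -0.15 to 0.55, and Rps9 gave 0.17 and -0.77 for the transgene on GW501516.

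The dimmest genes, Rps27 of the 40S subunit and Rpl12 and Rpl39 of the 60S subunit, were near the filter. Rps27 read 131.3 and 167.7 in transgenic glands, and 108.8 and 146.8 in wild type, on GW501516 and chow. Rpl12 read 148.7 and 125.2 in transgenic glands, and 151.3 and 155.6 in wild type, on GW501516 and chow. Rpl39 read 141.6 and 146.2 in transgenic glands, and 162.9 and 160.8 in wild type, on GW501516 and chow. Shared probe sets of the same symbols were bright: 9518 for Rps27, 7617 and 12014 for Rpl12 and 15187 for Rpl39, as means over the 4 arrays.

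Genes whose human counterparts are mutated in Diamond-Blackfan anaemia, a failure of red cell formation, overlap the set: 12 of 21 listed were measured. Their median log2 difference was 0.15 for GW501516 in transgenic glands and -0.14 in wild type, where 11 of 12 were below 0, against 37 of the 48 genes they belong to and 54.9% of all genes, and 0.10 and -0.25 for the transgene on GW501516 and on chow. The medians of 0.15 and -0.25 changed sign under quantile normalization, at -0.21 and 0.055, and under spike-in scaling, at -0.44 and 0.18. Rpl11, which with Rpl5 and 5S RNA restrains Mdm2, read 9363 and 8817 in transgenic glands, and 8664 and 9497 in wild type, on GW501516 and chow, a range of 0.13 (log2).

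Genes that act with the ribosome in translation were set beside the 48 genes. Fau, which encodes a ubiquitin-like protein fused to a 40S ribosomal protein and was outside the rule, read 10383 and 9077 in transgenic glands, and 9643 and 10772 in wild type, on GW501516 and chow. The 17 measured genes of elongation factors and other TOP mRNAs had medians of 0.0026 and -0.034 for GW501516 in transgenic and wild-type glands, and 0.021 and -0.034 for the transgene on GW501516 and on chow, and all of these but the wild-type diet median changed sign under another scaling. In transgenic glands 2 of these 17 were at least 25% higher on GW501516 and 1 at least 20% lower, against 20.9% and 24.9% of all genes. Tpt1, a TOP mRNA of a growth-linked protein, read 16839 and 10106 in transgenic glands, and 14929 and 14839 in wild type, on GW501516 and chow, 1.67-fold higher on GW501516 in transgenic glands. Hnrnpa1, an RNA-binding protein, read 1220 and 1242 in transgenic glands, and 742.5 and 1312 in wild type, on GW501516 and chow, 1.77-fold lower on GW501516 in wild type. Nap1l1, a histone chaperone, was 1.47-fold higher in transgenic glands than in wild type on GW501516.

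Initiation factors had medians of 0.096, -0.029, 0.11 and 0.025 over 25 genes in the same 4 comparisons, of which 0.096 and 0.025 changed sign under another scaling. Eif5b, which joins the subunits, was 1.63-fold higher in transgenic glands than in wild type on GW501516, with 419.1 in transgenic glands and 257.9 in wild type. Eif6, which keeps the 60S subunit from joining early, was 1.60-fold lower in transgenic glands than in wild type on chow, with 876.1 in transgenic glands and 1405 in wild type. Eif2b4, a subunit of the exchange factor of eIF2, read 1260 and 788.3 in transgenic and wild-type glands on GW501516.

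Ribosome biogenesis genes, which make and process ribosomal RNA, had medians below 0 on GW501516 in both genotypes. Of 36 genes 25 (69.4%) were lower in transgenic glands, against 53.1% of all genes, with a median of -0.18. In wild type 30 (83.3%) were lower, against 54.9% of all genes, with a median of -0.16. These signs held after quantile normalization, at -0.15 and -0.14, and after spike-in scaling, at -0.77 and -0.22. At least 20% lower were 11 (30.6%) in transgenic glands, against 24.9% of all genes, and 8 (22.2%) in wild type, against 18.3%, shares not far from the background. Cell cycle genes were likewise lower on GW501516, in 16 of 18 in transgenic glands and 17 of 18 in wild type, with medians of -0.27 and -0.33, and their part in these values was not tested. Nop58, a core protein of the small nucleolar particles that methylate ribosomal RNA, read 600.1 and 1076 in transgenic glands and 541.5 and 832.7 in wild type, on GW501516 and chow. Fbl, the methyltransferase fibrillarin, read 2238 and 2309 in transgenic glands, and 1295 and 1973 in wild type, on GW501516 and chow. Taf1d, a factor of RNA polymerase I, was 2.30-fold higher in transgenic glands than in wild type on GW501516, with 306.6 in transgenic glands and 133.2 in wild type. The transgene gave biogenesis medians of 0.074 on GW501516, which was -0.018 after spike-in scaling, and 0.13 on chow.

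The 74 mitochondrial ribosomal protein genes, whose products build the separate ribosome of mitochondria, had medians of -0.040, -0.061, 0.011 and -0.0098 in these comparisons, close to those of all genes. All of these but the wild-type diet median changed sign under another scaling. Mrpl33 was the exception past 2-fold: it read 348.4 and 1013 on GW501516 and chow in transgenic glands, and 429.4 and 1018 in wild type, 2.91-fold lower on GW501516 in transgenic glands and 2.37-fold lower in wild type. Mrps6 was 1.79-fold higher in transgenic glands than in wild type on GW501516, and Mrpl4 was 1.68-fold lower in transgenic glands on chow.

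**Figure D5:**
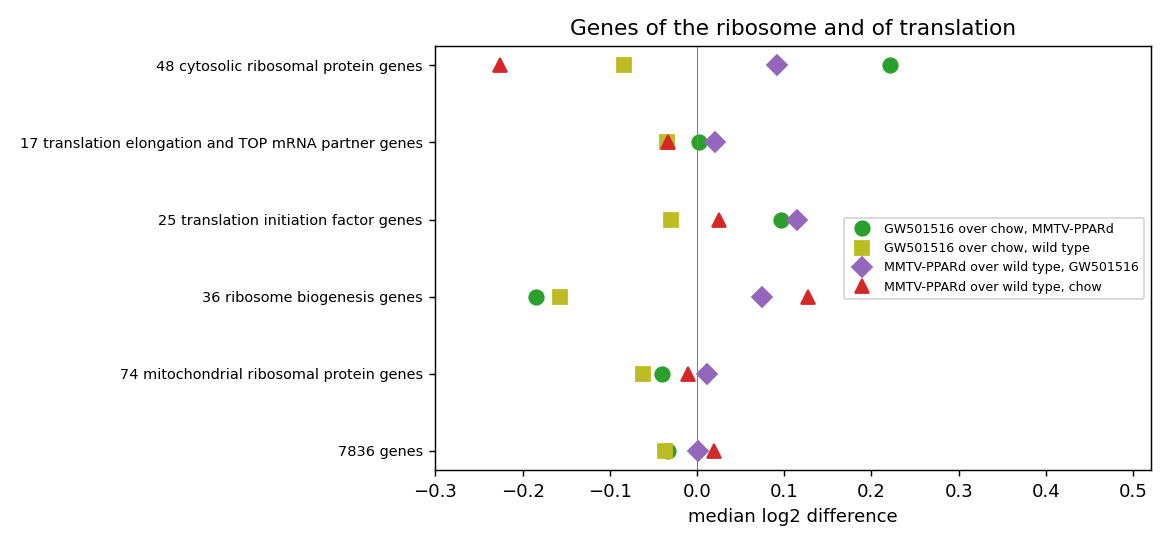
Median log2 difference (horizontal axis) of 5 groups of genes and of all 7836 genes, with 1 marker for each comparison. The 48 cytosolic ribosomal protein genes span from -0.23 to 0.22 and the 74 mitochondrial ones from -0.061 to 0.011; the ribosomal protein medians of 0.22 and -0.23 change sign under quantile normalization and spike-in scaling.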

How the data were processed

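Probe set intensities were deposited on a linear scale for 4 arrays, 1 pool of 5 mice each. Per the labels' protocols, biotin-labelled cRNA was made by the Affymetrix protocol. Scanner software, summarisation and detection calls are not given in the sources used here, nor is a genome build. The mean of each array's intensities without the lowest and highest 2% was 500.17 to 500.2, from which the scaling by the authors to a common trimmed mean was read.

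One symbol was listed for 20393 probe sets (20364 matched by gene ID to RefSeq, which updated the symbol), several for 691 and none for 1606. For each of 12394 genes the probe set of highest mean was kept. The floor of 20.5 was the 25th percentile of all values and the filter of 139 their median, which left 7836 genes. Differences are of log2 values. With 1 array per group nothing was tested, and the limits of 25% higher, 20% lower and 2-fold only describe. The number of arrays limits the precision.

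The genes and lists were chosen with earlier results of these data known. Named were the paralogs, the stalk proteins and Rpsa; the 3 highest and lowest genes of each comparison that differs in 1 factor; the 3 brightest and dimmest; the 5 with the widest range; the 5 whose probe sets disagree most; and up to 3 of each related list. Rps14, Rpl10a and Rpl11 and single cell markers were chosen after their values were seen. Alternatives changed scaling, floor, filter, probe sets and members. Simulated data for the transgene on chow checked only that the steps ran, over 7377 genes. Of 100 genes raised by 1.5 (log2) 100 were found, and of 100 lowered 90. Of 7177 unchanged genes 0 were called. With 1 array per group the scatter between arrays could not be measured, so the simulated scatter was assumed. These counts thus give no rate of false calls for the real arrays. For scale, kept probe sets differed from the median of a gene's others by an SD of 0.38 (log2) in this comparison, over 2536 genes. Python 3.11.15, pandas 2.3.3, numpy 2.4.6 and matplotlib 3.10.9 were used.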

Additional observations from a re-analysis of the deposited data

Results flagged for a closer look

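The effect of GW501516 on ribosomal protein genes had opposite signs in the genotypes, with a median log2 difference of 0.22 in transgenic glands and -0.083 in wild type, apart by 0.30. The effect of the transgene likewise had a median of 0.091 on GW501516 and -0.23 on chow, apart by 0.32. Both gaps include the array of transgenic mice on chow, whose spike-ins were low, and both 0.22 and -0.23 changed sign under quantile normalization and spike-in scaling.

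By its dim kept probe set, Rpl37 was lower in transgenic than in wild-type glands on GW501516 (-0.32) and higher on chow (0.75), a difference of -1.07 (log2). Bright probe sets shared between Rpl37 and other symbols did not repeat this. They gave 0.13 and -0.089 on GW501516, and -0.25 and -0.13 on chow. Rpl3l was lower in transgenic glands on GW501516 (-0.47) and higher on chow (2.08), a difference of -2.55, beside muscle genes with medians of -0.10 and 1.45. With 1 array per group none of these differences was tested.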

How the results depend on the processing

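No paired analysis was possible because each group was 1 pool on 1 array with no replicate number. Of 390 summary values over the alternatives 290 kept their direction and size, 91 moved and 9 changed sign. Values of single named genes kept theirs in 716 cases, moved in 121 and changed sign in 19. The cause was not tested, except where an alternative tests fewer genes. Members with shared probe sets, the filter at a mean of 5000 and spike-in scaling were chosen after seeing the data. The filter without a minimum and the floors (none with log2 of intensity + 1, or the 40th percentile) moved none of the summary values.

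The median of the 48 genes ran over the alternatives from -0.39 to 0.29 for GW501516 in transgenic glands, from -0.15 to -0.056 in wild type, from -0.0018 to 0.11 for the transgene on GW501516, from -0.29 to 0.21 on chow, from -0.18 to 0.012 for both factors together (transgenic glands on GW501516 over wild type on chow), and from -0.24 to 0.37 for the difference of GW501516 effects. Counts below are of genes at least 25% higher or 20% lower unless said otherwise.

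With arrays shifted to one median, 22 genes were lower for the transgene on chow, against 26.9% of all genes, and 1 was 2-fold lower in the difference of GW501516 effects. Quantile normalization gave medians of -0.14 for GW501516 in transgenic glands, 0.032 for the transgene on chow and 0.010 for the difference of effects. It gave 3 genes higher for GW501516 in transgenic glands and 6 in the difference, 4 lower for the transgene on chow and 2 for both factors. Over all genes these shares were 22.7% and 26.5% higher, and 24.2% and 20.9% lower, in the same order. Spike-in scaling gave medians of -0.39 for GW501516 in transgenic glands, -0.0018 and 0.21 for the transgene on GW501516 and on chow, -0.18 for both factors and -0.24 for the difference. It gave 2 genes higher and 28 lower for GW501516 in transgenic glands (1 and 3 at 2-fold), 5 lower in wild type, 1 higher for the transgene on GW501516, 11 higher and 2 lower for the transgene on chow (2 and 0 at 2-fold), 9 lower for both factors, and 1 higher and 14 lower in the difference (4 lower at 2-fold). Over all genes under spike-in scaling, 4.47% were higher and 76.1% lower for GW501516 in transgenic glands, and 23.2% were lower in wild type. For the transgene, 12.5% were higher on GW501516, and 63.0% were higher and 6.76% lower on chow. For both factors 34.1% were lower, and in the difference 6.38% were higher and 67.4% lower.

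A mean of at least 1000 left 38 genes, with 2 lower for GW501516 in transgenic glands and 0 at 2-fold higher; 0 higher, 0 lower and 0 at 2-fold higher in wild type; 1 lower for the transgene on GW501516; 2 higher and 0 at 2-fold either way on chow; 0 higher, 0 lower and 0 at 2-fold higher for both factors, with a median of 0.0047; and 2 lower, with 0 and 1 at 2-fold higher and lower, in the difference. A mean of at least 5000 left 36 genes, with 0 in each class that moved and a median of 0.012 for both factors. Without paralogs 42 genes gave 1 at 2-fold higher for GW501516 in transgenic glands, 0 higher, 1 lower and 0 at 2-fold higher in wild type, 1 higher and 1 lower for the transgene on GW501516, 0 at 2-fold higher on chow, 0 in all classes for both factors and 1 at 2-fold lower in the difference.

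The mean over a gene's probe sets gave 1 at 2-fold higher for GW501516 in transgenic glands, 2 higher in wild type, 1 higher for the transgene on GW501516, 0 at 2-fold lower on chow and 0 at 2-fold higher in the difference. The 87 probe sets singly gave 27 higher and 9 lower for GW501516 in transgenic glands, 4 lower in wild type, 5 higher for the transgene on GW501516, 22 lower on chow, 5 lower for both factors, and 40 higher and 8 lower in the difference. Without probe sets whose names end in _s_at, _x_at or _a_at, 19 genes gave 5 higher for GW501516 in transgenic glands, 0 higher for the transgene on GW501516, 6 lower on chow, 2 lower for both factors, and 7 higher and 1 at 2-fold lower in the difference. With shared probe sets 77 genes gave 28 higher, 2 lower and 1 at 2-fold higher for GW501516 in transgenic glands, 2 higher, 18 lower and 0 at 2-fold lower for the transgene on chow, 37 higher, 2 lower and 0 at 2-fold higher in the difference, and a median of 0.0067 for both factors.

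Single genes changed sign as follows. For GW501516 in transgenic glands, quantile normalization gave -0.017 for Rpl38, -0.013 for Rplp0, -0.013 for Rps10 and -0.018 for Rps24, and spike-in scaling gave -0.21 for Rpl38, -0.20 for Rplp0, -0.11 for Rplp2, -0.17 for Rps10, -0.25 for Rps24, -0.10 for Rps28 and -0.042 for Rps4l. For the transgene on chow, spike-in scaling gave 0.052 for Rpl38, 0.023 for Rplp2, 0.073 for Rps24, 0.042 for Rps28 and 0.073 for Rps29, and quantile normalization 0.045 for Rps29. With shared probe sets Rps6 gave 0.25 for GW501516 in transgenic glands and -0.27 for the transgene on chow.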
